A study of Mus musculus with 28 samples.

Results

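The genes described here are 5 members of the Reg family of secreted lectins, Reg1, Reg3a, Reg3b, Reg3g and Reg4, and Retnlb, which encodes resistin-like molecule beta. These 6 genes were taken by name from the 29413 genes of a table on BMP ligands and the 55416 genes of a table on Tgfb. Expression had been measured by mRNA sequencing in wild-type C57BL/6 mouse small-intestinal organoids, which grow from isolated crypts as closed epithelium in a gel. Per the series title and labels, the study concerns how single ligands of the Tgfb superfamily act on the differentiation of villus-tip enterocytes. Among the BMP samples 4 were untreated, 4 had received recombinant Bmp2, and 3 each had received recombinant Bmp3, Bmp4, Bmp5 or Bmp7. Among the Tgfb samples 3 were untreated and 3 had received recombinant Tgfb. Each ligand was given alone at 500 ng/ml for 24 h, and organoids of all groups had first been seeded in the same ENR medium, to which no Bmp or Tgfb had been added. The cultures hold epithelium without the stroma, immune cells or microbes of the gut. The labels do not say which samples came from separate animals, so p-values measure the spread between these samples, which may be technical. They mention more than 1 sequencing run without assigning samples to runs. The 2 mesenchymal samples of the series were not analysed here.

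Reg proteins are small secreted C-type lectins. Reg3b and Reg3g are antibacterial lectins of the intestinal epithelium, made by enterocytes and Paneth cells, and Reg3g binds the peptidoglycan of Gram-positive bacteria. In the gut their transcription is known to respond to microbial signals through MyD88 and to IL-22 through STAT3. Reg1 and Reg3a are their close relatives, Reg4 is a more distant member found in enteroendocrine and other secretory cells, and Retnlb is a bactericidal goblet cell product induced by type 2 cytokines.

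The promoters are shown because Reg3b, Reg3g, Reg1 and Reg3a lie in 1 cluster and moved in the same direction, whereas Reg4 lies elsewhere and mostly did not. In the RefSeq promoter table (GRCm38.p6, a build other than that of the expression tables) 5 of the 6 genes had an entry. Along chromosome 6 the order was Reg3b, Reg3d, Reg3a, Reg2, Reg1 and Reg3g, and Reg4 was on chromosome 3. The 250 bases before each start site are given 5′ to 3′ on the gene's own strand, at chr6:78370635-78370884 (+) for Reg3b, chr6:78468875-78469124 (-) for Reg3g, chr6:78425733-78425982 (+) for Reg1, chr6:78380459-78380708 (+) for Reg3a and chr3:98221906-98222155 (+) for Reg4. Capitals mark the letters TTCNNNGAA, a STAT-type motif, and CAGAC or its complement GTCTG, a SMAD-type motif, both searched on both strands.
Reg3b: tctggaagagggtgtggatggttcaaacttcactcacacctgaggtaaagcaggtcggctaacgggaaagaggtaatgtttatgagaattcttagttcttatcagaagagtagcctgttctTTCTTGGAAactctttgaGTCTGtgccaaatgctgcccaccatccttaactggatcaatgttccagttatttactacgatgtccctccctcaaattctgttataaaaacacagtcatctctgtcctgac
Reg3g: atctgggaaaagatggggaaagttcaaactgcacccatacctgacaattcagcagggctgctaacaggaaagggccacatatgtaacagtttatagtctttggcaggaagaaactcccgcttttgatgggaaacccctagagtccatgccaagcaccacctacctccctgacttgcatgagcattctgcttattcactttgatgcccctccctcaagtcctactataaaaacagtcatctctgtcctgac
Reg1: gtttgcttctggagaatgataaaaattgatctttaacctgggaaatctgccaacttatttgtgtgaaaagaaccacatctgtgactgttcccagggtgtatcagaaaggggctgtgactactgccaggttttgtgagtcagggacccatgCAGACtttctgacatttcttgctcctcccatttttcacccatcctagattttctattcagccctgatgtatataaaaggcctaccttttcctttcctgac
Reg3a: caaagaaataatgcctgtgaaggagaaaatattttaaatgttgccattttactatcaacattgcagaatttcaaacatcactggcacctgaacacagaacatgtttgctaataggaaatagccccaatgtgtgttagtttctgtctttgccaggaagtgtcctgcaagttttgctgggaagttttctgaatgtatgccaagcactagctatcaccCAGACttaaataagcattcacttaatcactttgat
Reg4: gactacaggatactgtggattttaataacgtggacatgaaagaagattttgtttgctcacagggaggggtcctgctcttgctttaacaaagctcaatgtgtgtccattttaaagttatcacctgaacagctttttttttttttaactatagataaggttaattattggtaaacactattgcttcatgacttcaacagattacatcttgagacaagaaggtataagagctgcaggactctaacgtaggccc

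The STAT-type letters occurred in 1 of the 5 promoters, that of Reg3b, as TTCTTGGAA at position -129 from the start site. They occurred in 8.3% of all 32851 promoters of 300 bases in the table. CAGAC was found in the promoters of Reg1, Reg3a and Reg3b, and in 49.6% of all promoters. The SMAD palindrome GTCTAGAC (0.213% of all promoters) and GGCGCC (11.9%), searched in the same way, were in none of the 5 over their full 300 bases. None of these letters overlapped another motif in the promoters shown. The Reg3b and Reg3g promoters ended in the same 20 bases, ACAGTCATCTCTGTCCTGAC, directly before the start site. Their alignment had 177 identical of 243 aligned bases, and the longest identical run between any other pair of the 5 was 11 bases. The matches are descriptions of letters, and binding was not measured.

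Every 75-base window, the length of 1 read, in the transcripts of the 6 genes was specific to its gene in the reference transcript set. For Reg3b this held for 1076 windows and for Reg3g for 2252, with 0 shared with another gene, so whole reads of these relatives could be told apart by sequence. Of shorter 31-base runs, 51 of 895 in Reg1 were shared with other genes. In Reg3b 5 of 1120 such runs and in Reg3g 5 of 2164 were shared with a relative. The depth was 21358620 to 24784834 recovered reads per sample in the BMP table, where 1 read was worth 0.826 to 1.28 normalized counts, and it is unknown in the TPM table. The sum of all normalized counts was higher with BMP2 (27350549 on average) and BMP4 (26232395) than in controls (19885612). Tests used limma on log2(value + 1) across all 14746 genes with a mean of at least 10 in the BMP table and 12959 genes with a mean of at least 1 TPM in the Tgfb table, with Benjamini-Hochberg adjustment and a threshold of 0.05. Of the 6 genes 5 passed this filter in both tables and Retnlb in neither. Normalized counts are not divided by gene length, so they are compared between samples of 1 gene only.

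BMP2 lowered 4 of the 5 tested genes to a few percent of their control level or below. Reg3b was at 2760, 2660, 11000 and 7400 normalized counts in control replicates II, III, IV and VI, and at 9.08, 15.3, 100 and 159 with BMP2 in the same order. The groups did not overlap, and every BMP2 sample was at or below 159 against 2660 or more in controls. Reg3b changed by -6.94 on the log2 scale (SE 0.749, adjusted p 1.0e-07). The mean was 70.8 ± 71.9 with BMP2 against 5955 ± 4025 untreated (SD, n = 4 each), 84.1-fold lower.

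Reg3g, the Gram-positive-directed relative, was at 1610, 1590, 4030 and 2850 normalized counts in the controls. With BMP2 it was at 30.7, 24.3, 88.2 and 84.8, again with no overlap. It changed by -5.55 (SE 0.445, adjusted p 1.6e-09). Reg1, at 2810, 3170, 6610 and 4540 in controls, was at 30.7, 53.7, 247 and 199 with BMP2 and changed by -5.39 (SE 0.549, adjusted p 4.5e-08). Reg3a was left with 10 reads or fewer per sample. It was at 337, 420, 429 and 823 in controls and at 3.41, 5.11, 0 and 12.7 with BMP2, which are 3, 4, 0 and 10 reads. Its change was -6.76 (SE 0.583, adjusted p 4.5e-09), with a wide counting error at so few reads.

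Reg4 did not follow them. It was at 3340, 2290, 2970 and 2230 normalized counts in controls, and at 7150, 5040, 2450 and 2130 with BMP2. Replicates II and III with BMP2 were above every control, replicate IV lay inside the control range and replicate VI just below it. The difference of 0.47 (95% confidence interval -0.30 to 1.25, adjusted p 0.253) did not pass the test. Of the 5 genes 4 were called lower with BMP2, against 38.4% of all genes tested (5657 genes, or 7820 once all samples are given an equal total). The median log2 change of the 5 was -5.55, and that of all genes tested was -0.03.

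**Figure D1:**
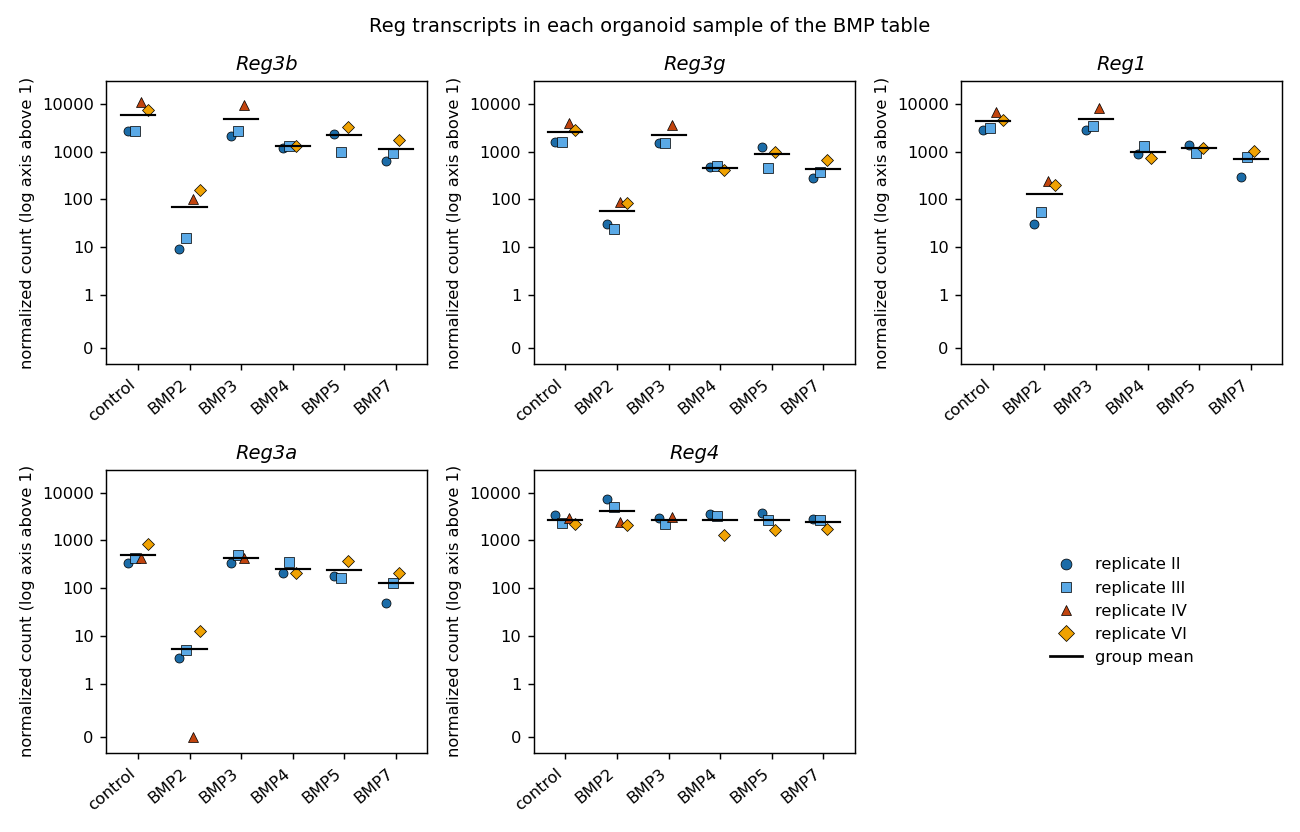
Normalized counts (log axis above 1) of 5 Reg transcripts in each of the 20 samples of the BMP table, by group, with symbols for the replicate number and a bar for the group mean. Reg3b, Reg3g, Reg1 and Reg3a sit lowest with BMP2, the BMP3 samples lie with the controls, and Reg4 stays between 1270 and 7150 in all samples.

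BMP4, BMP5 and BMP7 gave lower levels of the same genes at intermediate values. Reg1, Reg3a, Reg3b and Reg3g had higher means with each of these ligands than with BMP2, and lower means than in controls. Reg3g was at 468, 499 and 404 normalized counts with BMP4 in replicates II, III and VI, at 1230, 463 and 975 with BMP5, and at 279, 373 and 673 with BMP7. All 9 samples were below the lowest control. Its log2 change was -2.35 with BMP4 (adjusted p 0.00029), -1.50 with BMP5 (adjusted p 0.0272) and -2.49 with BMP7 (adjusted p 0.00059). Reg1 was at 900, 1340 and 737 with BMP4, at 1390, 939 and 1190 with BMP5, and at 294, 762 and 1020 with BMP7. Its 9 treated values also lay under every control. The changes of Reg1 were -2.07 (adjusted p 0.0049), -1.80 (adjusted p 0.0311) and -2.72 (adjusted p 0.0017) in that order.

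Reg3b was at 1210, 1300 and 1330 normalized counts with BMP4, at 2320, 961 and 3260 with BMP5, and at 634, 956 and 1790 with BMP7. The BMP4 and BMP7 samples were below all controls, and BMP5 replicate VI overlapped them. The changes of Reg3b were -1.95 with BMP4 (adjusted p 0.0419), -1.35 with BMP5 (adjusted p 0.241) and -2.27 with BMP7 (adjusted p 0.0389). Reg3b is the member with the widest spread among controls, and its BMP4 call ended without control replicate IV (adjusted p 0.119) or VI (0.0919) or any BMP4 replicate (0.0785 to 0.0901), and with no filter on low values (0.059). Its BMP7 call ended without control replicate IV (0.107) or VI (0.0897), or without BMP7 replicate II (0.149) or III (0.0836), and with no filter on low values (0.0569).

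Among the 4 clustered genes Reg3a had the smallest change with BMP4, at 207, 350 and 205 normalized counts in replicates II, III and VI. It was at 183, 164 and 361 with BMP5 and at 48.1, 127 and 210 with BMP7. BMP7 alone separated it from the controls without overlap. The change of Reg3a was -0.94 with BMP4 (adjusted p 0.200), -1.09 with BMP5 (adjusted p 0.223) and -2.11 with BMP7 (adjusted p 0.0153). With the replicate numbers as blocks it was -1.22 with BMP4 (adjusted p 0.0323) and -1.37 with BMP5 (adjusted p 0.034), so both passed in the paired fit. Both also passed by DESeq2 (adjusted p 0.0439 and 0.0449) and in a fit of the 2 groups alone (0.0192 and 0.0453), and the BMP4 change passed by edgeR (0.0369). Its BMP7 call ended without BMP7 replicate II (adjusted p 0.112) and with a pseudocount of 0.1 (adjusted p 0.132). Reg4 changed by -0.12, -0.08 and -0.19 with BMP4, BMP5 and BMP7, and none of these passed. Replicate VI was the lowest Reg4 sample with each of them, at 1270, 1640 and 1730.

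Called lower were 3 of the 5 genes with BMP4, against 31.4% of all genes (4633 genes, or 6896 at the same total), 2 with BMP5, against 9.87%, and 4 with BMP7, against 13.2%. Both BMP5 calls, Reg1 and Reg3g, ended without control replicate IV or VI or without BMP5 replicate III or VI. The adjusted p then lay between 0.0532 and 0.17. In the paired fit 4 genes were called lower with BMP4, 3 with BMP5 and 4 with BMP7. The count of all genes called lower rose as well, from 4633 to 5159 with BMP4. It rose from 1455 to 2593 with BMP5 and from 1940 to 3148 with BMP7. Quantile normalization gave 2413 genes lower with BMP5 and 2938 with BMP7.

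With BMP3 no member differed from untreated organoids past the threshold. Reg3b was at 2110, 2690 and 9680 normalized counts in replicates II, III and IV with BMP3, and Reg1 at 2830, 3400 and 8240. Reg3g was at 1490, 1490 and 3600, Reg3a at 334, 484 and 436, and Reg4 at 2860, 2230 and 3050. The log2 differences from control lay between -0.38 for Reg3b and 0.09 for Reg1, each with an adjusted p of 1. The 95% confidence intervals were wide, from -2.08 to 1.32 for Reg3b and from -1.23 to 0.79 for Reg3g. BMP3 changed 0% of all genes (0 by limma and by edgeR, 1 by DESeq2), and 110 genes had an unadjusted p under 0.05.

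**Figure D2:**
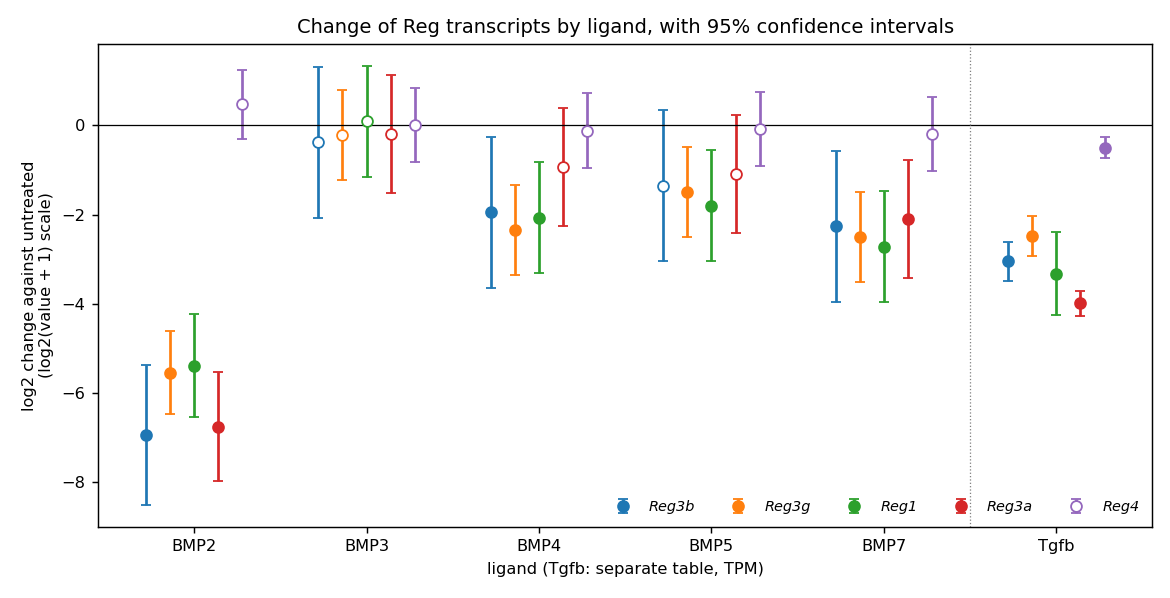
Log2 change against untreated organoids of the same table, on the log2(value + 1) scale, with 95% confidence intervals, for 5 Reg transcripts and each ligand. Filled points passed an adjusted p of 0.05 and open points did not. The 4 clustered genes lie between -5.39 and -6.94 with BMP2 and between -2.48 and -3.99 with Tgfb, and Reg4 passed with Tgfb only.

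Tgfb lowered all 5 tested genes, in organoids with their own controls. Reg3b was at 628, 442 and 566 TPM in untreated replicates I, II and III, and at 64.3, 53.2 and 77.8 with Tgfb. Reg3g was at 180, 144 and 230 TPM untreated and at 30.6, 28.2 and 36.5 with Tgfb. Reg3a was at 126, 108 and 113 TPM untreated and at 6.84, 6.96 and 5.31 with Tgfb. Neither these genes nor Reg1 had overlapping groups. The share of all genes without overlap was not counted, and 56.7% of genes tested were called either way. Reg1 was at 161, 66.1 and 75.5 TPM untreated, with replicate I well above the other two, and at 11.6, 5.65 and 8.91 with Tgfb. Reg4 was at 130, 151 and 165 TPM untreated and at 107, 104 and 101 with Tgfb, a small gap with no overlap.

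The largest change under Tgfb was that of Reg3a, -3.99 on the log2 scale (SE 0.115, adjusted p 3.7e-06). Reg1 changed by -3.32 (SE 0.386, adjusted p 0.00057), Reg3b by -3.05 (SE 0.181, adjusted p 3.8e-05) and Reg3g by -2.48 (SE 0.185, adjusted p 8.7e-05). Reg4 changed by -0.50 (SE 0.0976, adjusted p 0.0051). Called lower were 5 of 5, against 29.3% of all genes of that table. TPM is per length, so genes can be ranked in it. Untreated, the order was Reg3b (545 TPM), Reg3g (185), Reg4 (149), Reg3a (116) and Reg1 (101), and from Reg3g downward each range overlapped the next except those of Reg4 and Reg3a. With Tgfb, Reg4 (104 TPM) stood first and Reg3a (6.37) last, and Reg3a and Reg1 overlapped.

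**Figure D3:**
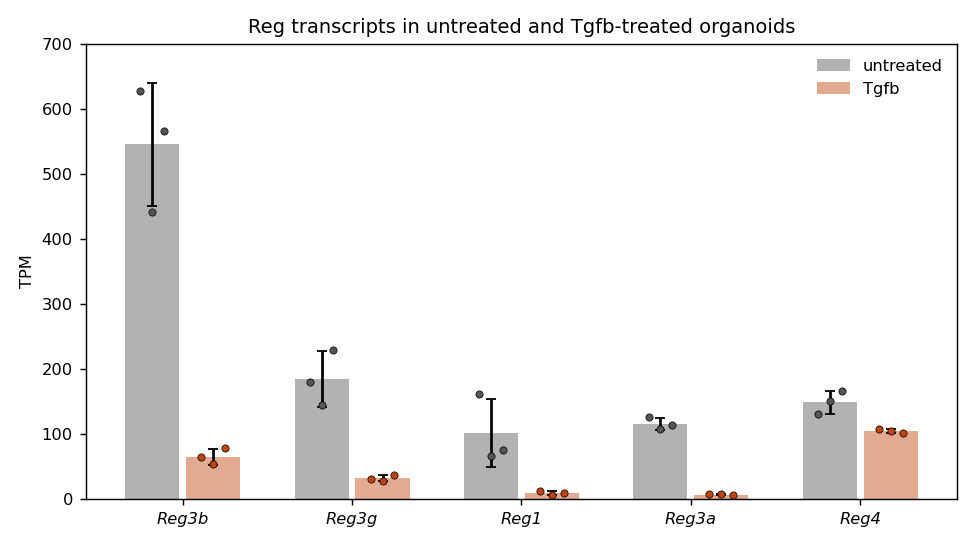
TPM of 5 Reg transcripts in 3 untreated and 3 Tgfb-treated organoid samples. Bars are means, whiskers are 1 SD and points are samples. Reg3b fell from 545 to 65.1 TPM, while Reg4 went from 149 to 104 TPM.

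Compared with each other at the same dose and time, BMP2 stood below the other ligands for the 4 clustered genes. BMP2 against BMP4 gave -3.32 for Reg1, -5.82 for Reg3a, -4.99 for Reg3b and -3.20 for Reg3g. Against BMP7, which came nearest, the differences were -2.67 for Reg1, -4.65 for Reg3a, -4.67 for Reg3b and -3.05 for Reg3g. BMP2 was lower for 4 of 5 genes against BMP4 (33.4% of all genes called lower), against BMP5 (32.8%) and against BMP7 (31.4%), and the highest adjusted p of these 12 differences was 0.00072. At the same total BMP2 was lower than BMP5 for 7284 genes, against 4832 as deposited, and lower than BMP7 for 6971, against 4625. Reg4 was higher with BMP2 by 0.59 against BMP4 (adjusted p 0.201) and by 0.67 against BMP7 (adjusted p 0.152). Both Reg4 differences passed with the replicate numbers as blocks (adjusted p 0.042 and 0.0248), while the BMP2 numbers did not meet the criterion for pairing.

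Among BMP4, BMP5 and BMP7 0 of 5 genes differed in any of the 3 pairs. The share of all genes called either way was 60.1% for BMP4 against BMP5, 59.8% for BMP4 against BMP7 and 0.0136% for BMP5 against BMP7. BMP4 at the same total was lower than BMP5 for 6941 genes, against 4668 as deposited, and lower than BMP7 for 6652, against 4628. The widest gap between BMP5 and BMP7 was that of Reg3a, 1.02 (95% confidence interval -0.40 to 2.43, adjusted p 1). Reg3g was lower with BMP4 than with BMP5 by -0.85 (95% confidence interval -1.93 to 0.23, adjusted p 0.164), and in the paired fit the adjusted p was 0.0285. Reg3a was higher with BMP4 than with BMP7 by 1.17 (95% confidence interval -0.25 to 2.58, adjusted p 0.145; 0.0499 in the paired fit). By mean level Reg1, Reg3b and Reg3g therefore ran from BMP2 to BMP7, BMP4, BMP5, and then to controls and BMP3. For Reg3a BMP5 came before BMP4. Within this order no difference among BMP7, BMP4 and BMP5 passed the unpaired test, nor did any between BMP3 and controls. In each of the 3 same-numbered sample pairs BMP7 was below BMP5 for these 4 genes. The genes are not separate cases, since they come from the same samples and were correlated. Reg3b in replicate III was nearly level, at 956 with BMP7 and 961 with BMP5. The share of all genes with this order was not counted. The lowest adjusted p of BMP5 against BMP7 in the paired fit was 0.59, for Reg3g.

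The replicate number left a mark on 3 of the genes. In controls Reg3b was 2660 to 2760 normalized counts in replicates II and III and 7400 to 11000 in IV and VI, and Reg1 and Reg3g were likewise higher in IV and VI. The same 2 numbers were higher with BMP2, where Reg3b was 9.08 and 15.3 in II and III against 100 and 159 in IV and VI, and replicate IV was the highest of the 3 BMP3 samples. As a percentage of the control with the same number, Reg3b with BMP2 was 0.329% and 0.575% in II and III and 0.909% and 2.15% in IV and VI. The BMP2 numbers did not meet the criterion for pairing, so the BMP2 percentages are not ratios of matched samples. Reg3g with BMP2 was between 1.53% and 2.98%. Reg3b with BMP7 was 23% to 35.9%, Reg3g 17.3% to 23.6% and Reg1 10.5% to 24%. With BMP4 replicate VI was lowest for these 3, at 18% for Reg3b, 14.2% for Reg3g and 16.2% for Reg1, against 43.8% to 48.9%, 29.1% to 31.4% and 32% to 42.3% in II and III. Reg4 with BMP2 was 214% and 220% of control in II and III and 82.5% and 95.5% in IV and VI.

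**Figure D4:**
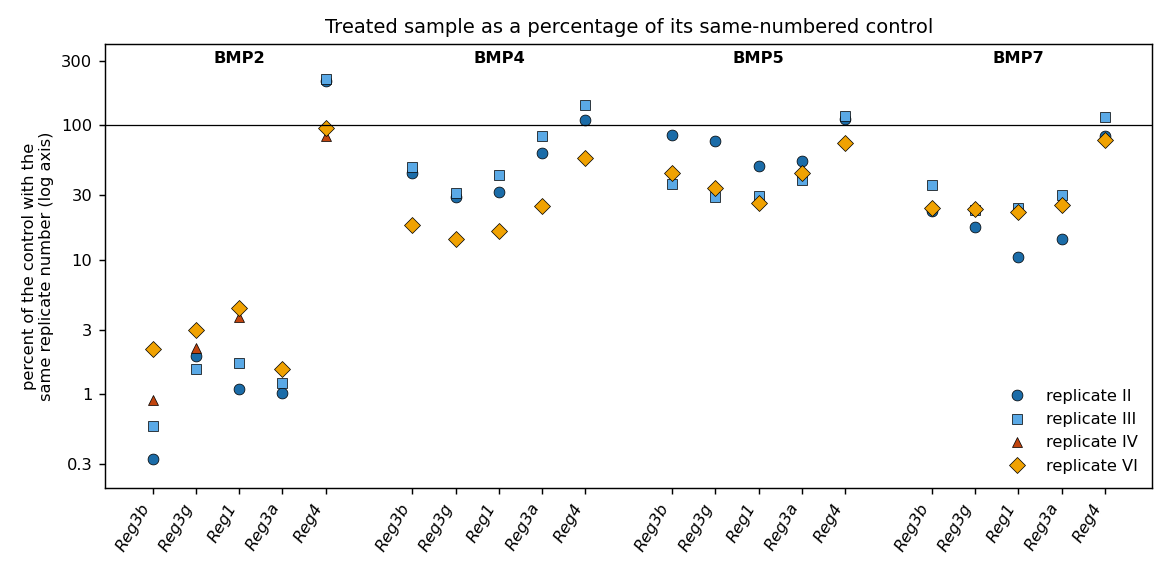
Each treated sample as a percentage (log axis) of the control with the same replicate number, for 5 Reg transcripts and 4 ligands. Reg3a in BMP2 replicate IV is at 0 and not drawn. The BMP2 numbers did not meet the criterion for pairing. The 4 clustered genes lie at or below 4.38% with BMP2, and Reg4 with BMP2 splits into 214% and 220% for replicates II and III and values under 100% for IV and VI.

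Across the 20 samples Reg1, Reg3b and Reg3g rose and fell together. Pearson's r of log2 values was 0.98 between Reg1 and Reg3g, 0.97 between Reg3b and Reg3g and 0.96 between Reg1 and Reg3b. After removing group means it was 0.88, 0.93 and 0.91. Reg3a had r of 0.87 to 0.90 with these 3 over all samples and 0.12 to 0.22 in the deviations. Those deviations include the BMP2 samples, where Reg3a held 3, 4, 0 and 10 reads. The part of counting error in the lower r of Reg3a was not tested. Reg4 had r of -0.38 to -0.51 with the other 4. These samples share their controls, replicate numbers and scaling. Of 11856 genes with a mean of at least 50, those most like Reg1 were Reg3g, Pigh (0.97) and 4933431E20Rik (0.97), and those most like Reg3g were Reg1, 4933431E20Rik (0.98) and Reg3b. Reg3b was most like Reg3g, Reg1 and Gcdh (0.96), and Reg3a most like Arsg, Abcc6 and Guf1 (0.97 each). Reg4 was most like Chgb, a granin of neuroendocrine granules (0.93 over all samples, 0.95 in deviations), Serpini1 (0.91) and Scg2, another granin (0.83).

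**Figure D5:**
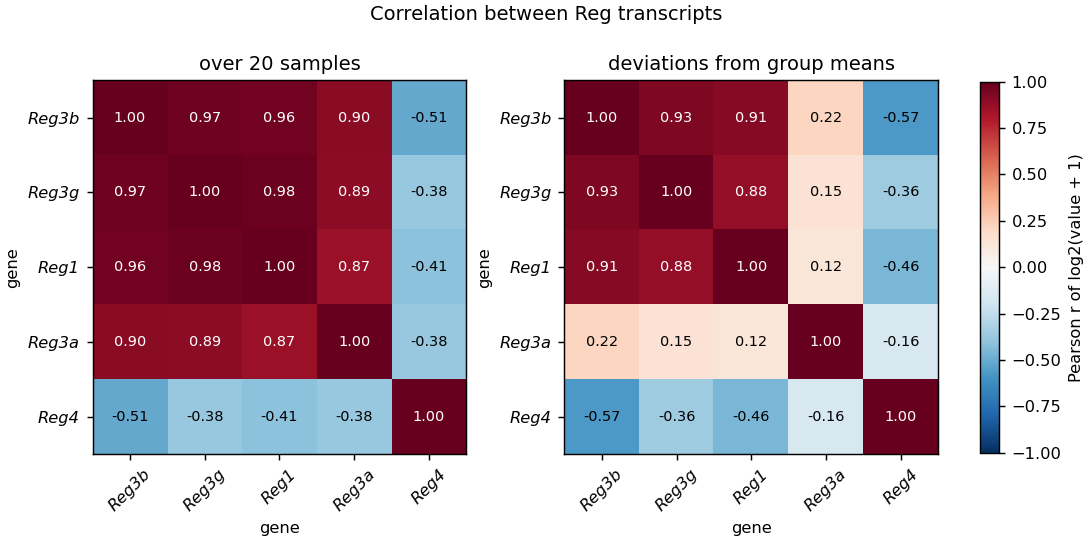
Pearson's r of log2(value + 1) between Reg transcripts over the 20 samples of the BMP table (left) and of deviations from group means (right). Reg1, Reg3b and Reg3g keep r of 0.88 to 0.93 on the right, and Reg3a drops to 0.12 to 0.22 with them. Reg3a held 10 reads or fewer in each BMP2 sample, so its deviations there carry a wide counting error.

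Retnlb was close to absent. The controls held 0, 1, 0 and 3 reads of it, all samples with BMP2, BMP4 and BMP7 held 0, and the BMP3 and BMP5 samples held 0 to 2. A count of 0 allows up to 3 reads, or 2.48 to 3.84 normalized counts depending on the sample, so no change was detectable at this depth. In the Tgfb table it was listed at 0.173 TPM in untreated replicate I, 0.104 TPM in Tgfb replicate I and 0 in the other 4 samples. Together the 6 genes took 0.0164% ± 0.0082 of summed normalized counts with BMP2 against 0.0807% ± 0.0367 untreated (SD, n = 4 each). Reg4 made up 4192 of the mean sum of 4458 normalized counts with BMP2, and 2708 of 15968 untreated, so the share with BMP2 was mostly that of the gene that was not called. The share of all 6 was 0.0774% with BMP3, 0.0218% with BMP4, 0.035% with BMP5 and 0.0229% with BMP7. It went from 0.11% to 0.0216% of TPM with Tgfb.

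Close relatives in the same cluster were scarce. Reg2 averaged 13 ± 8.82 normalized counts with BMP2 against 11.6 ± 6.97 untreated (SD, n = 4 each), and its adjusted p was 0.76. Reg3d was below the filter, at 3.21 in controls and 0 in all 4 BMP2 samples. Retnla and Retnlg, other resistin-like genes, were analysed in the Tgfb table alone, where they were listed at 0 in every sample. Extl3, proposed as a Reg receptor, changed by 0.27 with BMP2 (adjusted p 0.00733) and by -1.08 with BMP4 (adjusted p 9.4e-09). At the same total the Extl3 value with BMP2 turned to -0.19 (adjusted p 0.0491), as the median of all genes then shifts by -0.459.

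The gene lists that follow are read against the share of all genes called higher, which was 27.4% for Tgfb, 36.8% for BMP2, 33.7% for BMP4, 16.5% for BMP5 and 19.2% for BMP7, and against the shares called lower given above. The first list held receptors of the IL-22 and IL-6 families, Jak kinases, Stat3 and its feedback genes. It includes the route from IL-22 through STAT3 that is known to induce Reg3 genes. More genes of this list rose than fell with each of these ligands. Of 16 tested, 13 rose and 1 fell with BMP2, 11 rose and 2 fell with BMP4, 9 rose and 1 fell with BMP5, and 7 rose and 1 fell with BMP7. With Tgfb 8 of 11 rose and 0 fell. In the BMP table Osmr, Lifr and Socs1 averaged 2.14, 5.87 and 6.79 normalized counts in controls, under the filter's mean of 10. They were tested because other groups were higher, so the filter favoured counting their rises. At the same total 11 rose and 1 fell with BMP2, and 7 rose and 3 fell with BMP4. The list's median log2 change was 1.25 under BMP2, 1.05 under BMP4, 0.55 under BMP5 and under BMP7, and 0.88 under Tgfb, against -0.05 to 0.04 for all genes. Il22ra1, the epithelial IL-22 receptor chain, went from 514 to 1312 normalized counts with BMP2 (log2 1.33) and to 1907 with BMP4 (log2 1.88). Stat3 rose under all 5 of these ligands, by 1.29 (BMP2), 1.40 (BMP4), 0.58 (BMP5), 0.72 (BMP7) and 1.23 (Tgfb). Socs3, a feedback inhibitor that STAT3 induces, rose by 1.12 with BMP2 and 0.96 with BMP4, where at the same total it was 0.57 (adjusted p 0.0837). Socs3 did not pass with BMP5 (0.08, adjusted p 0.876), BMP7 (0.26, adjusted p 0.520) or Tgfb (0.50, adjusted p 0.0624). The largest rise was that of Osmr, the oncostatin M receptor, by 7.12 with BMP2. Osmr averaged 2.14 ± 1.14 normalized counts in controls (SD, n = 4), less than 3 reads, so the size of its rise is uncertain. Fut2, a fucosyltransferase, fell with BMP2, BMP4, BMP5 and BMP7, changing by -0.92 with BMP2 and -1.85 with BMP7. Il22ra1, Stat3 and Socs3 are named here after their values were seen.

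Genes of microbe sensing and NF-kB signalling rose more often than they fell, except with BMP4 at the same total. Of 17 tested, 15 rose and 2 fell with BMP2, 8 rose and 5 fell with BMP4, 10 rose and 1 fell with BMP5 and with BMP7, and with Tgfb 10 of 15 rose and 1 fell. At the same total 8 rose and 2 fell with BMP2, and 3 rose and 7 fell with BMP4. The median log2 change was 0.39 for Tgfb, 0.78 for BMP2, 0.52 for BMP5, 0.58 for BMP7 and 0.36 for BMP4 (-0.04 at the same total). Nlrp6, an inflammasome sensor of the intestinal epithelium, was the largest fall of the list under BMP2 (-6.03), BMP5 (-1.17), BMP7 (-1.49) and Tgfb (-2.48). Under BMP2 it went from 6755 ± 960 to 116 ± 75.7 normalized counts (SD, n = 4 each). A list of 6 tested genes held Il4ra, Il13ra1 and Stat6 of the IL-4 and IL-13 axis, which induces Retnlb, and the IL-17 family receptor chains Il17ra, Il17rb and Il17rc. Of these 3 rose and 0 fell with BMP2, 6 and 0 with BMP4, 2 and 1 with BMP5, 2 and 0 with BMP7, and 2 and 0 with Tgfb. The fall with BMP5 was that of Il17rc (-0.38). With BMP2 3 rose and 2 fell at the same total. Il4ra, the largest rise, rose by 2.82 (BMP2), 2.04 (BMP5), 2.33 (BMP7) and 3.17 (Tgfb).

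Other antimicrobial and secretory defence genes did not move as 1 group. Of 23 tested, 8 rose and 12 fell with BMP2, 7 rose and 5 fell with BMP4, and 8 rose and 2 fell with BMP5 and with BMP7. With Tgfb 9 of 24 rose and 10 fell. With BMP4 6 rose and 9 fell at the same total, and 6 and 8 after quantile normalization. The 8 rises with BMP2 and 7 with BMP4 were near the shares of all genes called higher. The list's median was -0.07 for Tgfb, -1.01 for BMP2, -0.26 for BMP4, -0.10 for BMP5 and -0.25 for BMP7. Pigr, the receptor that carries IgA across the epithelium, changed by -5.42 (BMP2), -1.22 (BMP5), -1.53 (BMP7) and -3.62 (Tgfb), and by -0.39 under BMP4 (adjusted p 0.118). Ccl28, a mucosal chemokine, changed by -6.02 with BMP2 and -1.88 with Tgfb. Sprr1a, of the small proline-rich proteins, rose by 4.92 with BMP2 and 4.44 with Tgfb. Zg16, a goblet cell lectin, rose by 5.35 with BMP4 and fell by 1.41 with BMP5. Lcn2, a siderophore-binding protein, rose by 4.28 with BMP5 and 3.32 with BMP7. It averaged 3.06 ± 3.89 normalized counts in controls (SD, n = 4), near the level of 3 reads, so the size of these rises is uncertain. It passed the filter only through groups where it was higher. With BMP2 it was at 0 in every sample.

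Of 16 regulators of intestinal identity and lineage, 3 rose and 6 fell with BMP2 (3 and 12 at the same total), 6 rose and 8 fell with BMP4, 2 rose and 2 fell with BMP5, 3 rose and 2 fell with BMP7, and with Tgfb 3 of 15 rose and 8 fell. The 6 falls with BMP2 and 6 rises with BMP4 were near the shares of all genes. The list's median lay between -0.33 with Tgfb and -0.14 with BMP7. Foxa1 rose by 2.87 with BMP2 and 2.03 with Tgfb. Gfi1, a factor of the secretory lineage, fell by 3.06 with BMP2.

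Markers of cell types that could carry Reg transcripts moved with the ligands too. In bulk samples fewer cells of a type and less RNA per cell cannot be told apart. The summed level of 9 Paneth cell markers was 119930 to 149190 normalized counts in controls, 40066 to 105530 with BMP2, 60895 to 126540 with BMP4, 100710 to 132680 with BMP5 and 85233 to 103630 with BMP7. Of these 9, 8 fell with BMP2 and 1 with each of BMP4, BMP5 and BMP7, and with Tgfb 4 fell and 1 rose. With BMP4 7 fell at the same total and 8 after quantile normalization. Lyz1, the Paneth cell lysozyme, averaged 49350 in controls and 25300 with BMP2, and Mmp7 3832 and 1772. The Paneth sum averaged 65014 with BMP2 against 128720 in controls.

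The 9 enterocyte markers summed to 59544 to 108490 normalized counts in controls, 32980 to 81461 with BMP2, 393810 to 487640 with BMP4, 40502 to 74021 with BMP5 and 32359 to 72442 with BMP7. Of these, 5 fell and 1 rose with BMP2 (0 rose under both other scalings), 8 rose with BMP4, 4 fell with BMP5 and 5 with BMP7, and with Tgfb 6 fell and 3 rose. With BMP4, Reg1, Reg3b and Reg3g were below every control and the enterocyte sum was above every control. Which cells carried the Reg transcripts was not measured. The 9 goblet cell markers summed to 25948 to 41939 in controls, 30239 to 67442 with BMP2 and 92124 to 151000 with BMP4. Of these, 3 rose and 5 fell with BMP2 (2 and 6 under both other scalings), 5 rose and 1 fell with BMP4, 2 fell with BMP5 and 2 with BMP7, and 7 fell with Tgfb. The 8 crypt stem and progenitor markers summed to 126230 to 155220 in controls, 1521 to 3091 with BMP2, 9576 to 14182 with BMP4, 48919 to 105590 with BMP5 and 42623 to 52029 with BMP7. All 8 fell with BMP2, BMP4 and Tgfb, 1 with BMP5 (3 at the same total) and 4 with BMP7.

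The 9 enteroendocrine markers, which include Chgb, summed to 7414 to 10780 in controls and 10379 to 23812 with BMP2. With BMP2 5 rose and 1 fell, with BMP4 3 and 1, with BMP5 and BMP7 2 and 1, and with Tgfb 5 and 1. Of these 4 rose and 2 fell with BMP2 at the same total. Chga rose by 1.31 with BMP2 and by 0.40 with Tgfb (0.37 with an adjusted p of 0.0561 at the same median), and Chgb changed by 0.49 with BMP2 (adjusted p 0.0843). The 5 tuft cell markers summed to 374 to 447 in controls and 1498 to 2342 with BMP2. The 7 markers of fetal-like or injured epithelium, such as Ly6a and Clu, summed to 9437 to 12349 in controls and 240290 to 285100 with BMP2. All 7 rose with BMP2, BMP5, BMP7 and Tgfb. Of these, Krt14 averaged 2.57 in controls and passed the filter of the BMP table only through groups where it was higher. Immune markers summed to 86.9 to 99.5 in controls, 55.6 to 145 with BMP2 and 140.4 to 249.1 with BMP4, where every sample was above the controls. Of the 3 tested, 1 rose and 2 were not called with BMP4, and 1 rose and 2 fell with BMP2. The rise with BMP4 was that of Itgam (1.81), while Ptprc, Cd3e and Cd79a were below the filter. The rise with BMP2 was that of Csf1r, at 4.32 in controls, which likewise passed the filter only through higher groups. The 4 mesenchymal markers of the BMP table, Pdgfra, Col1a1, Col1a2 and Col3a1, summed to 0.826 to 25.7 in controls and 33.3 to 54.2 with BMP2. In the Tgfb table Dcn and Lum were listed at 0 in all 6 samples. The part of these marker changes in the Reg results was not tested.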

How the data were processed

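Per the submitters' processing notes, Trim Galore, Salmon, DESeq2 and the mouse build GRCm39 were used, with no versions or settings given. The values the authors deposited for the BMP ligands are a signal. As the values themselves show, it is each gene's count over a factor fixed for its sample. All 180721 values at or below 20 reads were whole multiples of 1 read (100%, tolerance 0.1 reads). The values deposited for Tgfb are TPM, since each column sums to 1000000, and keep no depth. The tables were scaled separately, and each test stayed within a table.

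Columns were mapped to samples by their titles, and 0 were left unmapped. Log2(value + 1) of the BMP table was fitted with limma 3.58.1 (R 4.3.3), all 6 groups in 1 fit with an intensity trend. The Tgfb table was fitted alone. The design named edgeR for raw counts, and neither table holds them. Tests were two-sided. A change on the log2(value + 1) scale understates the change of low genes. Fold values are ratios of group means. The scripts were tested on simulated data. Alternatives were pseudocounts of 0.1 and 5, other filters, total-count, median and quantile scaling, replicate blocks, fits of 2 groups, edgeR 4.0.16 and DESeq2 1.42.0 on recovered reads, and each replicate left out in turn.

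To see whether the replicate numbers pair samples, deviations from group means were correlated between same-numbered treated and control samples. Every correlation was over 0.1 for BMP3, BMP4, BMP5 and BMP7 (0.154 to 0.566). The lowest was 0.0182 for BMP2 and 0.0040 for Tgfb, so those numbers were not taken as pairs.

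All 6 genes are reported in every comparison. The naming rule added the 3 genes most correlated with each member, and per gene list the largest rise and fall past the threshold, of which a selection is printed. The members and lists were chosen with earlier results of these data known. Promoters were aligned globally with Biopython 1.88. Intervals and floors cover counting error only where they rest on reads, and the labels name no molecular identifiers that would tell PCR copies apart.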

Additional observations from a re-analysis of the deposited data

How the results depend on the processing

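For 5 genes in 8 comparisons, 40 log2 changes were recomputed under 665 alternatives in all. In 628 the direction and the side of the threshold were as reported, in 21 the call ended, in 11 a call was gained and in 5 the sign turned. The 16 calls of BMP2 against control, BMP4, BMP5 and BMP7 for Reg1, Reg3a, Reg3b and Reg3g and the 5 calls of Tgfb against control held under every alternative run. With BMP2 against control the log2 change ranged from -5.85 to -4.86 for Reg1, from -7.75 to -5.68 for Reg3a, from -7.60 to -6.27 for Reg3b and from -6.00 to -5.22 for Reg3g.

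The sign turned for uncalled Reg4 values. With BMP4 Reg4 was 0.015 by DESeq2 and -0.39 to 0.36 with 1 replicate left out (positive without BMP4 replicate VI). With 1 replicate left out it was -0.36 to 0.23 with BMP5 (positive without BMP5 replicate VI, and 0.03 without control replicate II) and -0.32 to 0.022 with BMP7 (positive without BMP7 replicate VI). Leaving out 1 replicate moved the count of members called from 2 to between 0 and 2 with BMP5, and from 4 to between 2 and 4 with BMP7. It moved the count of all genes called with BMP5 from 3884 to between 2517 and 4301, and the range with BMP7 is not given here. For BMP3 it gave 0 to 1 genes, DESeq2 gave 1 and a fit of the 2 groups alone gave 6. For BMP5 against BMP7 the count of 2 genes was 0 with a pseudocount of 0.1 or a filter of 50, 1 under both other scalings, 4 with a pseudocount of 5, with no filter or by edgeR, 24 by DESeq2 and 0 to 9 with 1 replicate left out. With the replicate block it was 6. The paired fit called 1 member for BMP4 against BMP5 and 1 for BMP4 against BMP7, as did a pseudocount of 5 for the latter. Of all genes the paired fit called 10065 and 9976 in these pairs, against 8863 and 8818 unpaired. The causes of these shifts were not tested.

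The replicate block changed no call of BMP2, BMP3, BMP7 or Tgfb against control. For BMP2, 3 of 4 samples correlated best with the control of their own number, and for Tgfb 1 of 3 did. At the same total in every sample the median of all genes shifted by -0.459 with BMP2 and by -0.397 with BMP4, and the 4 clustered genes stayed lower. Reg3a with BMP2 and Retnlb rest on 10 reads or fewer per sample, which limits their folds, and TPM values carry no depth. The gene lists were recounted under the other scalings, a step chosen after seeing the data.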
